A study of Mus musculus with 7 samples.

Results

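The comparison described here is that of bone-marrow-derived macrophages (BMDMs) after 4 h of lipopolysaccharide (LPS) with unstimulated BMDMs. Of the 22021 protein-coding genes in the LPS table, those 9658 whose mean over both libraries reached 50 were kept. A gene was called induced when log2((value at 4 h + 1)/(value at 0 h + 1)) was 2 or more, that is 4-fold, and repressed when it was -2 or less. By this rule 961 genes were induced (9.95% of the genes kept) and 613 were repressed (6.35%). The rule itself sets these counts and percentages, so they describe the threshold and carry no test.

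All cells were wild-type mouse BMDMs, and the study's methods describe them as bone marrow of C57BL/6 mice grown in macrophage colony-stimulating factor (M-CSF). The methods give mice aged 6 to 12 weeks, male and female, for the experiments as a whole, and do not say which age, sex or number of animals lies behind each library. One experiment followed BMDMs without LPS (0 h) and at 2 h and at 4 h of LPS at 100 ng per mL, each sequenced as a single library. In the other, BMDMs carried an adeno-associated virus (AAV) with the green fluorescent protein gene (AAV-GFP) or with Shisa3 (AAV-Shisa3) and were taken after 48 h, 2 samples of each. BMDMs of this kind are a mixed culture and not sorted cells, and with 1 library per time point no difference between time points has a replicate check. No p-value is given for LPS.

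LPS, which coats Gram-negative bacteria, is sensed by Toll-like receptor 4. The receptor signals through the adaptor MyD88 to NF-κB and MAP kinases, which drive cytokine genes, and through the adaptor TRIF to IRF3 and type I interferon, which then acts back on the cell through the STAT transcription factors. Macrophages that respond in this way turn from growth and tissue upkeep to secretion, killing of microbes and antigen presentation.

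The values are read counts divided by 1 factor per library, termed normalised read counts below. Every value was a whole multiple of the value of 1 read within 0.01 reads, and the reads recovered from them summed to between 7263258 (2 h) and 32659392 (4 h) per library. Between 91.2% and 93.6% of reads fell on protein-coding genes. A normalised read count is not divided by transcript length, so levels are compared between libraries and not between genes. The scaling matters for the direction of small changes: with the deposited values the median log2 change of all kept genes was 0.02, with edgeR's TMM factors it was -0.03, and with reads scaled to equal library totals it was -0.80. The split between induced and repressed genes moved with it, from 961 and 613 to 938 and 640 with TMM and to 582 and 1544 with equal totals, so the share of induced genes among those past 4-fold went from 61.1% to 59.4% and to 27.4%. The medians of gene lists moved together with that of all genes (by 0.79 to 0.82 with equal totals, where 29 of 65 list medians changed sign), and all directions below are therefore relative to the median of all kept genes. Of 45 lists with more induced than repressed members the order ended with equal totals in 25, and of 17 lists with more repressed than induced members in 0.

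All 10 macrophage markers examined, among them Csf1r, Adgre1, Cd68 and Lyz2, had values over 50 in both libraries, and their summed value was 331490 at 0 h and 337377 at 4 h. Most of this sum was Lyz2 (242489 and 209164), and single markers differed, with Fcgr1 at 1432 and 15965, Cd14 at 2841 and 17508, Spi1 at 2250.1 and 10573 and Csf1r at 46545 and 31846. The T cell genes Cd3e and Cd3g, the B cell gene Ms4a1 and the NK cell genes Gzma and Ncr1 had no read at 0 h or at 4 h. The 10 neutrophil and granulocyte precursor markers summed to 4792, 10001 and 7076 at 0 h, 2 h and 4 h, with 6 of them over 50 at both 0 h and 4 h. Their defining marker Ly6g had 4 reads at 0 h and 2 at 4 h. Stromal markers summed to 479 at 0 h and 1057 at 4 h, with the collagen genes Col1a1, Col1a2 and Col3a1 near their 0 h values and Pdgfrb at 17.4, 205 and 513. Endothelial markers summed to 92.6 and 1578, nearly all of it Kdr, while Cdh5 had 2 and 15 reads. T cell markers summed to 129 and 384, of which Cd4 and Lck made up nearly all, and dendritic, B, NK, mast and erythroid markers summed to at most 118 in any library. Which cells these reads came from, and their part in the changes below, was not tested, and in a bulk library fewer cells of a type and less RNA per cell cannot be told apart. The Y-linked genes Ddx3y, Eif2s3y, Kdm5d and Uty had reads in all 3 libraries, and Xist had 21 reads at 0 h, 0 at 2 h and 3 at 4 h.

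The induced genes took up 5.97% of all reads at 0 h, 28.6% at 2 h and 37.2% at 4 h. The repressed genes took up 4.67% of all reads at 0 h, 1.07% at 2 h and 0.355% at 4 h. With the deposited scaling more rises than falls were large: 101 induced genes against 10 repressed genes passed 64-fold (6 on the log2 scale), and 296 against 81 passed 16-fold. The median log2 change was 3.20 among the induced and -2.69 among the repressed genes, values that the rule fixes in part. With equal library totals the medians of the same genes were 2.38 and -3.48, so the order of their sizes turned. Just inside the threshold lay Zfp263, Pirb and Cd47 (log2 changes of 2.001, 2.001 and 2.002) among the rises, and just outside it lay Fdps, Pagr1b and Cdk6 (1.998, 1.999 and 1.999). Among the falls, Gm13212, Klf9 and Tk2 (-2.001, -2.002 and -2.003) lay just inside, and Mcm2, Tbc1d2 and Ddb2 (-1.996, -1.999 and -1.999) just outside.

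**Figure D1:**
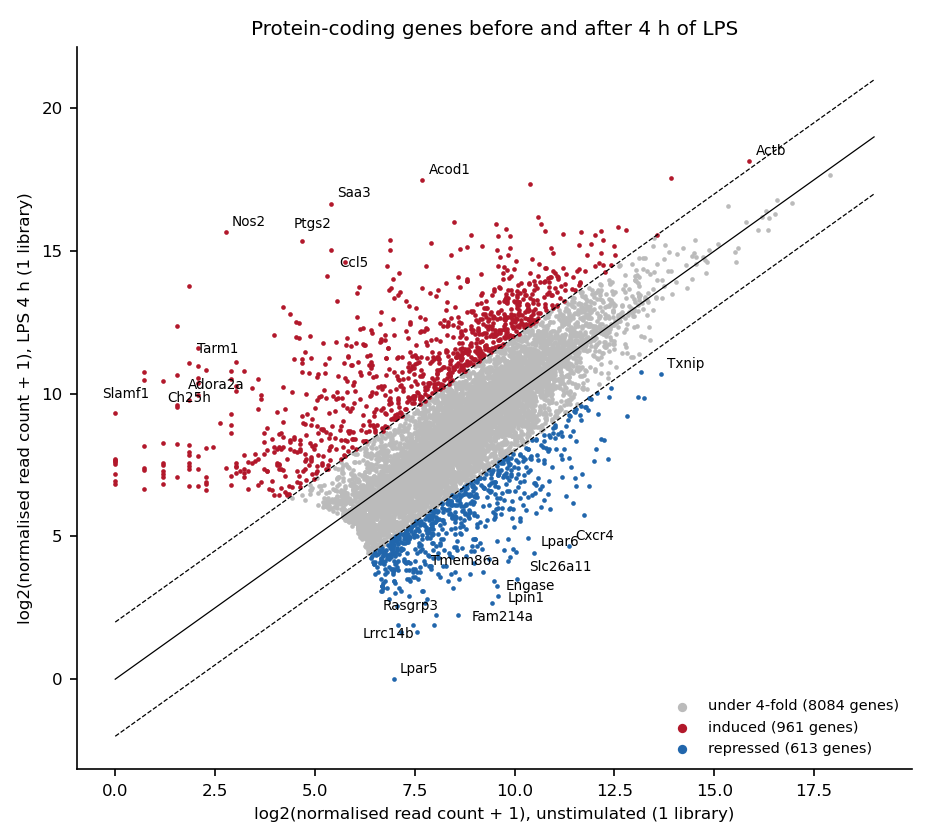
Each point is 1 of the 9658 protein-coding genes kept, with log2(normalised read count + 1) in the unstimulated library on the x axis and in the LPS 4 h library on the y axis. Dashed lines mark 4-fold, red points are the 961 induced and blue points the 613 repressed genes. With the deposited scaling rises reached further from the diagonal than falls, from Nos2 at a log2 change of 12.89 to Lpar5 at -6.97. Lpar5 had no read at 4 h, so its value is set by the 1 added.

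The largest rise was that of Nos2. Nos2, the inducible nitric oxide synthase, had 5.79 at 0 h, 5948 at 2 h and 51437 at 4 h (normalised read counts, as throughout) and was 8885-fold higher (95% counting interval 4680.1 to 19431) at 4 h. The counting interval covers the sampling of reads only and says nothing of other cultures. Saa3, an acute-phase serum amyloid A protein, had 41.2 at 0 h, 21044 at 2 h and 103417 at 4 h and was 2512-fold higher (95% counting interval 1967 to 3262). Ptgs2, the inducible cyclooxygenase of prostaglandin synthesis, had 24.4 at 0 h, 14233 at 2 h and 41858 at 4 h (log2 change 10.68). All 3 genes were already far above their 0 h value at 2 h and stood higher again at 4 h. Acod1, which turns an intermediate of the tricarboxylic acid cycle into itaconate, had 205 at 0 h, 92321 at 2 h and 183998 at 4 h (log2 change 9.80), and it was among the genes with most reads at 4 h. Ch25h, which makes 25-hydroxycholesterol, had 1.29 at 0 h, 443 at 2 h and 1399 at 4 h (log2 change 9.26). Adora2a, a receptor for adenosine, had 1.93 at 0 h, 1033 at 2 h and 1627 at 4 h (log2 change 9.12). The unstimulated values of Ch25h and Adora2a stand for 2 and 3 reads, so their fold is loosely set by the 0 h library. Slamf1, a receptor of the SLAM family, had 1 read at 0 h and 2655 reads at 4 h, a ratio of 2243 with a counting interval from 402 to 88621. Of the 9 induced genes with no read at 0 h, Csf3, the granulocyte growth factor, was at least 108-fold higher at 4 h when 3 reads are put in the place of 0, Nox1, an NADPH oxidase, at least 105-fold and Il2ra, the α chain of the interleukin-2 receptor, at least 96.3-fold.

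The induced genes with the highest normalised read counts were largely other ones. Actb, the cytoplasmic β-actin, had 60124 at 0 h, 174525 at 2 h and 293794 at 4 h and was 4.89-fold higher (95% counting interval 4.85 to 4.92). With equal library totals its log2 change was 1.47 in place of 2.29, so it was 4-fold higher only with the deposited, TMM or median scaling. Rnf213, an interferon-induced ubiquitin ligase, had 15337 at 0 h, 131763 at 2 h and 195336 at 4 h (log2 change 3.67). Rsad2, the antiviral protein viperin, had 1331 at 0 h, 77776 at 2 h and 169038 at 4 h (log2 change 6.99), and Tnfrsf1b, the second receptor of tumour necrosis factor, had 6107 at 0 h, 41252 at 2 h and 58812 at 4 h (log2 change 3.27).

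Chemokines, which attract other leukocytes, made up the list with the largest median. Of 19 kept, 15 were induced and 0 repressed (15 and 0 with equal totals), with a median log2 change of 6.11 against 0.02 for all kept genes. Ccl5 had 41.2 at 0 h, 9027 at 2 h and 33285 at 4 h (log2 change 9.62). Cxcl9, which draws T cells through Cxcr3, had 3.86 at 0 h, 476 at 2 h and 1814 at 4 h (log2 change 8.54). Ccl4 had 118 at 0 h, 37011 at 2 h and 33508 at 4 h (log2 change 8.14). It did not climb between 2 h and 4 h. The members under 4-fold were Ccl6 (log2 change 0.35), Ppbp (0.61), Pf4 (0.65) and Cxcl16 (1.43). Of 35 secreted cytokines and growth factors, 19 were induced and 2 repressed (17 and 6 with equal totals), with a median of 2.71. Il1rn, the antagonist that blocks the interleukin-1 receptor, had 116 at 0 h, 10888 at 2 h and 42946 at 4 h (log2 change 8.51), and Il1a, an agonist of the same receptor, had 3.22 at 0 h, 1603 at 2 h and 1485 at 4 h (8.46). Il27 had 19.9 at 0 h, 8193 at 2 h and 7064 at 4 h (log2 change 8.398) and Il12b, a subunit shared by interleukin-12 and interleukin-23, had 8.36 at 0 h, 3452 at 2 h and 1800.3 at 4 h (7.59). The values of Il1a, Il27 and Il12b at 4 h were below those at 2 h, whereas Il1rn was still climbing. The 2 repressed members were Il16, a ligand of Cd4, with 1192 at 0 h, 190 at 2 h and 222 at 4 h (log2 change -2.42), and Vegfa, the vascular endothelial growth factor, with 484 at 0 h, 269 at 2 h and 108 at 4 h (-2.16).

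Interferon-stimulated genes were the list with the highest share of induced members. Of 99 kept, 93 were induced and 0 repressed, and all 99 lay above the 0 h value, with a median log2 change of 3.71 at 4 h and 2.61 at 2 h. With equal library totals 80 were induced. Ifi205, a member of the interferon-inducible p200 family, had 38.6 at 0 h, 3278 at 2 h and 18059 at 4 h (log2 change 8.83). Oasl1, an OAS-like protein that restrains translation of Irf7, had 119.6 at 0 h, 9678 at 2 h and 13216 at 4 h (log2 change 6.78), and Gbp5, a guanylate-binding protein of host defence, had 219 at 0 h, 23223 at 2 h and 23053 at 4 h (6.71). The smallest changes were those of Ms4a6b (log2 change 0.79), Irf9 (1.15), the DNA-binding subunit of the interferon-activated factor ISGF3, and Ly6e (1.37). The Slfn, Gbp, Tgtp and Trim30 families hold near-identical copies between which reads may have been split, so the values of their single members are uncertain.

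Genes that switch signals on and genes that switch them off were both among the induced. Of 56 NF-κB subunits and feedback regulators, 31 were induced and 3 repressed (23 and 5 with equal totals), with a median log2 change of 2.31. Socs3 and Socs1, which block cytokine receptors and JAK kinases, had 239.9, 61361 and 39510.3 and 24.4, 5667 and 2157 at 0 h, 2 h and 4 h (log2 changes 7.36 and 6.41 at 4 h). Tnfaip3, the ubiquitin-editing enzyme A20 that ends NF-κB signalling, had 393 at 0 h, 50159 at 2 h and 34388 at 4 h (log2 change 6.45). All 3 were highest at 2 h. Dusp2 and Dusp1, phosphatases of MAP kinases, had 21.9, 10602 and 5914 and 124, 7837 and 10562 (log2 changes 8.01 and 6.399). They belong to a list of 63 phosphatases and other attenuators, of which 13 were induced and 7 repressed, an order that turned with equal totals (5 and 15). Rgs2, which shortens signals of G proteins, had 1582 at 0 h, 89.5 at 2 h and 101 at 4 h (log2 change -3.95). Inpp5d, the lipid phosphatase SHIP1 that removes the product of PI3K, had 4868 at 0 h, 2697 at 2 h and 334 at 4 h (log2 change -3.86). Dusp6, the phosphatase of ERK, had 214 at 0 h, 74.2 at 2 h and 48.4 at 4 h (-2.12). Members of 1 phosphatase family thus lay on both sides of the threshold. Repressed in the NF-κB list were among others Peli2 (log2 change -3.46), a Pellino ubiquitin ligase, and Map3k14 (-2.41), the kinase NIK of the alternative NF-κB pathway.

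Genes of cell death were induced in 20 of 54 cases and repressed in 3 (16 and 6 with equal totals), with a median of 0.89. The anti-apoptotic Bcl2a1b had 184 at 0 h, 6754 at 2 h and 8215 at 4 h (log2 change 5.47), and its near-identical copies Bcl2a1a and Bcl2a1d had log2 changes of 7.89 and 7.47. Reads may have been split between these copies, so their single values are uncertain. Casp4, the caspase that senses cytosolic LPS, had 298 at 0 h, 2952 at 2 h and 6107 at 4 h (log2 change 4.35). Bmf, a BH3-only protein that promotes apoptosis, went the other way with 1052 at 0 h, 24.02 at 2 h and 21.2 at 4 h and was 49.7-fold lower (95% counting interval 36.2 to 70.1). Dfna5, a gasdermin, had 97.8 at 0 h, 65.5 at 2 h and 15.8 at 4 h (log2 change -2.56).

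Metabolic genes divided by pathway. Of 27 genes of arginine, polyamine, tryptophan and biopterin metabolism, 12 were induced and 0 repressed (7 induced with equal totals). Beside Nos2 they held Slc7a2, which brings arginine into the cell, with 23.2 at 0 h, 939 at 2 h and 5687 at 4 h (log2 change 7.88), and Ass1, which remakes arginine from citrulline, with 68.8 at 0 h, 504 at 2 h and 1729.7 at 4 h (4.63). Glycolysis and glucose uptake had 7 induced and 2 repressed of 36 (5 and 4 with equal totals). Pfkfb3, which makes the activator of phosphofructokinase, had 385 at 0 h, 7361 at 2 h and 17384 at 4 h (log2 change 5.49), while Pfkfb2, another enzyme of the same family, had 277 at 0 h, 98.3 at 2 h and 47.8 at 4 h (-2.51). Slc16a1 and Slc16a7, both carriers of lactate and pyruvate, parted in the same way, with 59.8, 279.5 and 2059 for the former and 673, 199 and 131 for the latter (log2 changes 5.08 and -2.35). Folate, one-carbon and nucleotide metabolism had 11 induced and 3 repressed of 58 (10 and 10 with equal totals), led by Upp1, a uridine phosphorylase (log2 change 8.30), Cmpk2, a mitochondrial nucleotide kinase (6.42), and Pnp, the purine nucleoside phosphorylase (4.19), which salvage or activate nucleosides.

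Genes of cholesterol synthesis and uptake were mostly higher, and more so at 4 h than at 2 h. The list had a median log2 change of 1.65 at 4 h and 0.25 at 2 h over 27 genes, with 7 induced and 1 repressed. With equal library totals 2 were induced. Hmgcs1, an early enzyme of the pathway, had 1321 at 0 h, 2566 at 2 h and 7892 at 4 h (log2 change 2.58). Idi1, the isopentenyl diphosphate isomerase, had 116 at 0 h, 181 at 2 h and 854 at 4 h (2.87). Dhcr7, which catalyses a last step of the pathway, was repressed, with 167 at 0 h, 65.5 at 2 h and 30.4 at 4 h (-2.41).

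Genes of fat breakdown were more often lower than higher. None of 56 genes of fatty acid oxidation and peroxisomes was induced and 6 were repressed (0 and 14 with equal totals). The repressed share was 10.7%, against 6.35% of all kept genes. The median was -0.50, and 39 genes lay below their 0 h value. Abcd2, which carries very-long-chain fatty acids into peroxisomes, had 950.1 at 0 h, 87.3 at 2 h and 18.5 at 4 h and was 51.4-fold lower (95% counting interval 36.6 to 74.5). Crot, which hands peroxisomal acyl chains to carnitine, had 674 at 0 h, 214 at 2 h and 116 at 4 h (log2 change -2.53), and Acot2, a mitochondrial acyl-CoA thioesterase, had 102 at 0 h, 48.04 at 2 h and 8.69 at 4 h (-3.40). Cpt1a, which controls the entry of fatty acids into mitochondria, had 1743 at 0 h, 930.2 at 2 h and 657 at 4 h (log2 change -1.41) and did not reach 4-fold. A separate list of lipid efflux, storage and fatty acid genes had 5 induced and 3 repressed of 53 (4 and 8 with equal totals). Its median was 0.01. Lpin1, a phosphatidate phosphatase that makes diacylglycerol and also coactivates oxidation genes, had 760.3 at 0 h, 91.7 at 2 h and 6.52 at 4 h and was 117-fold lower (95% counting interval 66.5 to 226). In contrast, genes for the tricarboxylic acid cycle had a median of 0.03 with Acod1 as the single gene past 4-fold of 42, and respiratory chain subunits had a median of 0.16 with 2 of 80 repressed.

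Handling of iron and oxidants changed at single steps. Of 51 genes in that list, 15 were induced and 2 repressed (12 and 5 with equal totals). Slc40a1, ferroportin, the exporter of iron, had 2331 at 0 h, 683 at 2 h and 136 at 4 h and was 17.2-fold lower (95% counting interval 15.1 to 19.6). Cp, ceruloplasmin, which oxidises iron outside the cell, had 115 at 0 h, 2358 at 2 h and 12876 at 4 h (log2 change 6.79), and Hp, haptoglobin, which binds free haemoglobin, had 84.9 at 0 h, 902 at 2 h and 4459.8 at 4 h (5.70). Sod2, the mitochondrial superoxide dismutase, had 798 at 0 h, 15124 at 2 h and 28337 at 4 h (log2 change 5.15). Txnip, an inhibitor of thioredoxin and of glucose uptake, had the highest normalised read count at 0 h among the repressed genes, with 12999.7 at 0 h, 2223 at 2 h and 1661 at 4 h, and was 7.83-fold lower (95% counting interval 7.54 to 8.13).

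Prostaglandin and phospholipase genes had 4 induced and 4 repressed members of 30 (4 and 7 with equal totals). Pla2g4a, which frees arachidonic acid from membranes, had 107 at 0 h, 574 at 2 h and 3745 at 4 h (log2 change 5.11), and Ptges, which makes prostaglandin E2 from the product of cyclooxygenase, had 17.4 at 0 h, 1037 at 2 h and 8352 at 4 h (8.83). Hpgd, which degrades prostaglandin E2, had 1341 at 0 h, 295 at 2 h and 159 at 4 h and was 8.42-fold lower (95% counting interval 7.45 to 9.55).

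**Figure D2:**
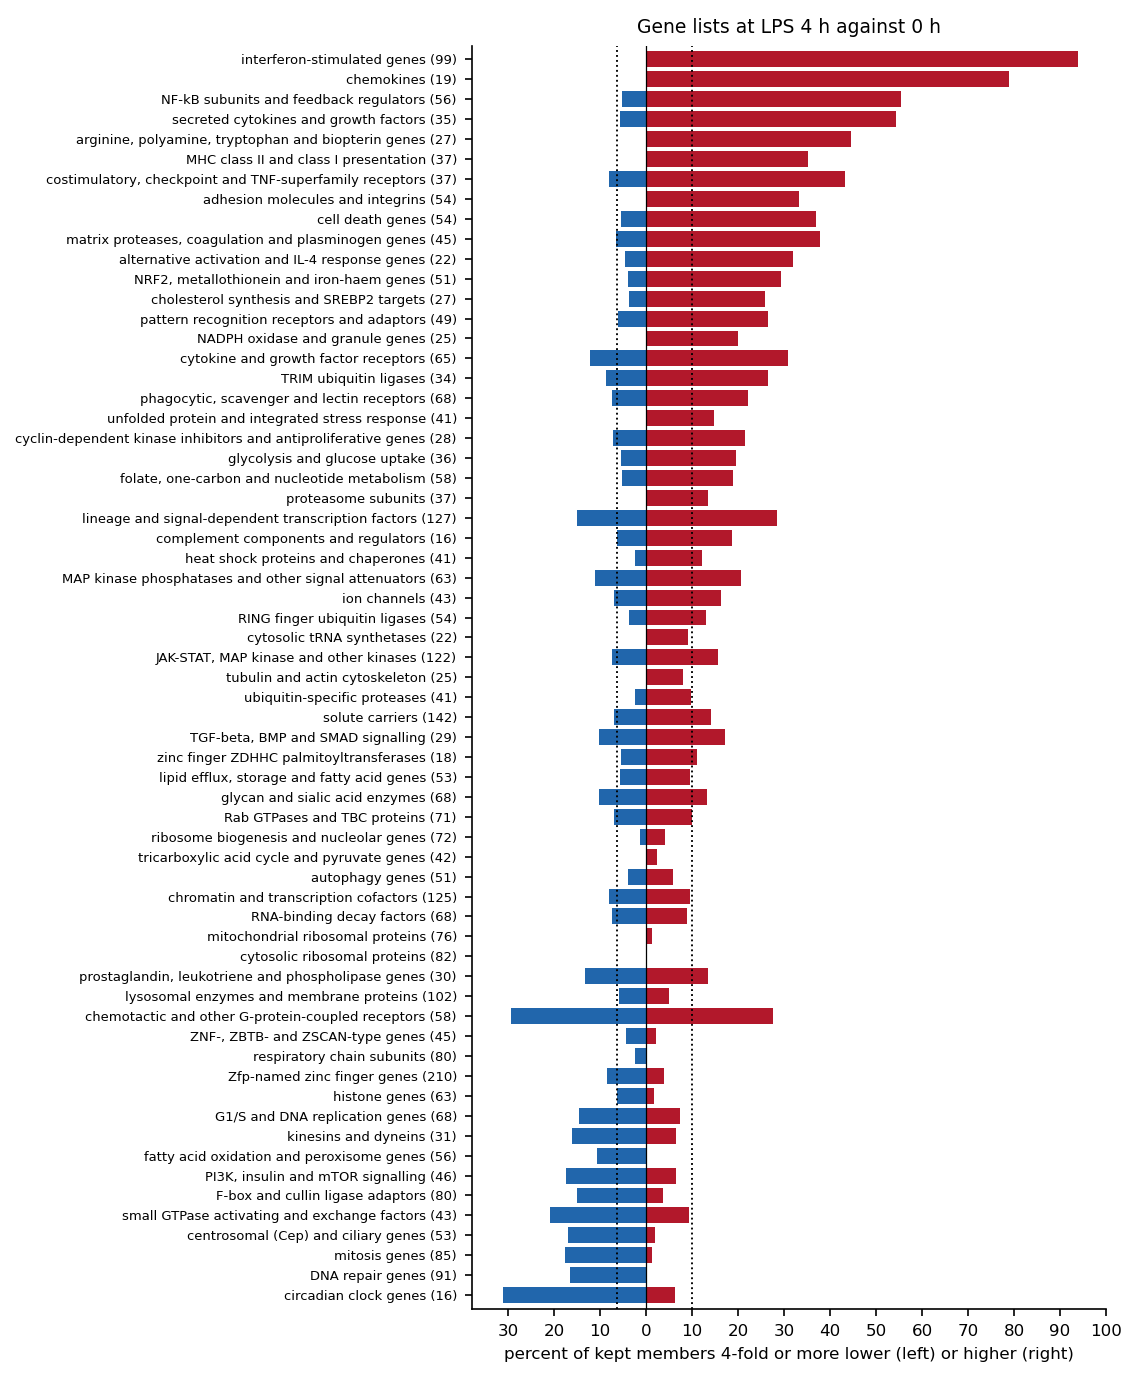
For each list of at least 15 kept genes (number in brackets), the red bar gives the percent of kept members 4-fold or more higher at LPS 4 h and the blue bar the percent 4-fold or more lower, from 1 library per time point. Dotted lines mark 9.95% and 6.35%, the shares among all kept genes; interferon-stimulated genes and chemokines stand at the top, and circadian clock, DNA repair and mitosis genes at the bottom.

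Genes for antigen presentation and for contact with T cells were mostly higher. Of 37 presentation genes, 13 were induced and 0 repressed (8 and 2 with equal totals). Tap1, a subunit of the peptide transporter, had 796 at 0 h, 7383 at 2 h and 13456 at 4 h (log2 change 4.08), and Nlrc5, the activator of MHC class I genes, had 936 at 0 h, 6972 at 2 h and 17141 at 4 h (4.19). Of 37 costimulatory and checkpoint genes, 16 were induced and 3 repressed (11 and 6 with equal totals), among the induced Cd40 with 124 at 0 h, 12095 at 2 h and 16819 at 4 h (log2 change 7.08) and Cd274, the ligand PD-L1, with 397 at 0 h, 6101 at 2 h and 13735 at 4 h (5.11). The 3 repressed members were Vsir, Havcr2 and Tnfrsf26. Vsir, the checkpoint protein VISTA, had 9194 at 0 h, 4659.9 at 2 h and 1753 at 4 h and was 5.24-fold lower (95% counting interval 5.05 to 5.45). Havcr2, the checkpoint receptor TIM-3, had 288 at 0 h, 155 at 2 h and 36.95 at 4 h (log2 change -2.93), and Tnfrsf26, a receptor of the TNF superfamily, had 156 at 0 h, 54.6 at 2 h and 32.6 at 4 h (-2.23). Cd28, which stands on no list and is best known as the costimulatory receptor of T cells, had 2511 at 0 h, 421 at 2 h and 83.7 at 4 h (log2 change -4.89).

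Adhesion molecules and integrins had 18 induced and 0 repressed of 54 (10 and 2 with equal totals). Itgb8, an integrin chain that activates TGF-β, had 7.08 at 0 h, 262 at 2 h and 1235 at 4 h (log2 change 7.26), and Sdc4, a heparan sulphate proteoglycan, had 1622 at 0 h, 104585 at 2 h and 62694 at 4 h (5.27). Proteases and coagulation genes had 17 induced and 3 repressed of 45 (14 and 4 with equal totals). Mmp13, a collagenase, had 111 at 0 h, 9139 at 2 h and 23067 at 4 h (log2 change 7.69). Thbd, thrombomodulin, which turns thrombin towards anticoagulation, had 246 at 0 h, 26.2 at 2 h and 22.3 at 4 h and was 11.03-fold lower (95% counting interval 7.98 to 15.6).

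By the log2 change of the rule, Lpar5 had the largest fall, but with no read at 4 h this rank depends on the constant added to each value. Its lower bound of 76.2-fold lies below the 108-fold of Cxcr4, so which gene fell most is not settled. Lpar5, a receptor for lysophosphatidic acid, had 124 at 0 h, 6.55 at 2 h and 0 at 4 h; it had no read in the 4 h library and was at least 76.2-fold lower when 3 reads are put in the place of 0. Cxcr4, the receptor of the chemokine Cxcl12 that holds leukocytes in bone marrow, had 2641 at 0 h, 54.6 at 2 h and 24.5 at 4 h and was 108-fold lower (95% counting interval 80.6 to 148). Lpar6, another receptor for lysophosphatidic acid, had 1445 at 0 h, 6.55 at 2 h and 20.6 at 4 h (log2 change -6.06). Sesn1, a sestrin that restrains the growth kinase mTORC1, had 3404 at 0 h, 74.2 at 2 h and 53.3 at 4 h and was 63.9-fold lower (95% counting interval 52.3 to 78.9). Tsc22d3, the glucocorticoid-induced leucine zipper protein that dampens inflammation, had 1256 at 0 h, 111 at 2 h and 59.2 at 4 h (log2 change -4.38). Trp53inp1, a p53 target that slows growth, had 1623 at 0 h, 67.7 at 2 h and 64.1 at 4 h (-4.64). In each of these 6 genes most of the fall was in place at 2 h. In others the 4 h value was again far below that at 2 h. Rasgrp3, an activator of Ras, had 379.5 at 0 h, 63.3 at 2 h and 3.804 at 4 h (log2 change -6.31). Tns1, a tensin that links integrins to actin, had 1906 at 0 h, 756 at 2 h and 61.9 at 4 h (-4.92). Engase, a cytosolic enzyme that trims N-glycans, had 751 at 0 h, 105 at 2 h and 8.69 at 4 h (-6.28), and Slc26a11, an anion transporter, had 1067 at 0 h, 98.3 at 2 h and 10.3 at 4 h (-6.56). Fam214a had 692 at 0 h, 19.7 at 2 h and 5.43 at 4 h (-6.75).

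Among the repressed genes with the highest normalised read counts at 0 h, Wwp1, a ubiquitin ligase of the HECT class, had 9679.8 at 0 h, 3236 at 2 h and 917 at 4 h and was 10.6-fold lower (95% counting interval 10.03 to 11.1). Hmha1, a GTPase-activating protein, had 8654 at 0 h, 3553 at 2 h and 957 at 4 h (log2 change -3.18). Slc43a2, a carrier of large neutral amino acids, had 7197 at 0 h, 4116 at 2 h and 592 at 4 h (-3.60). Ccr2, the receptor through which monocytes leave the marrow towards Ccl2, had 5486 at 0 h, 808 at 2 h and 1176 at 4 h (-2.22) and was lowest at 2 h, while its ligands Ccl2, Ccl7 and Ccl12 were higher at 4 h than at 0 h by log2 changes of 5.76, 8.10 and 7.63. The 4 h values of these 4 genes rested on 1089 to 2164 reads, which leaves little counting error.

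**Figure D3:**
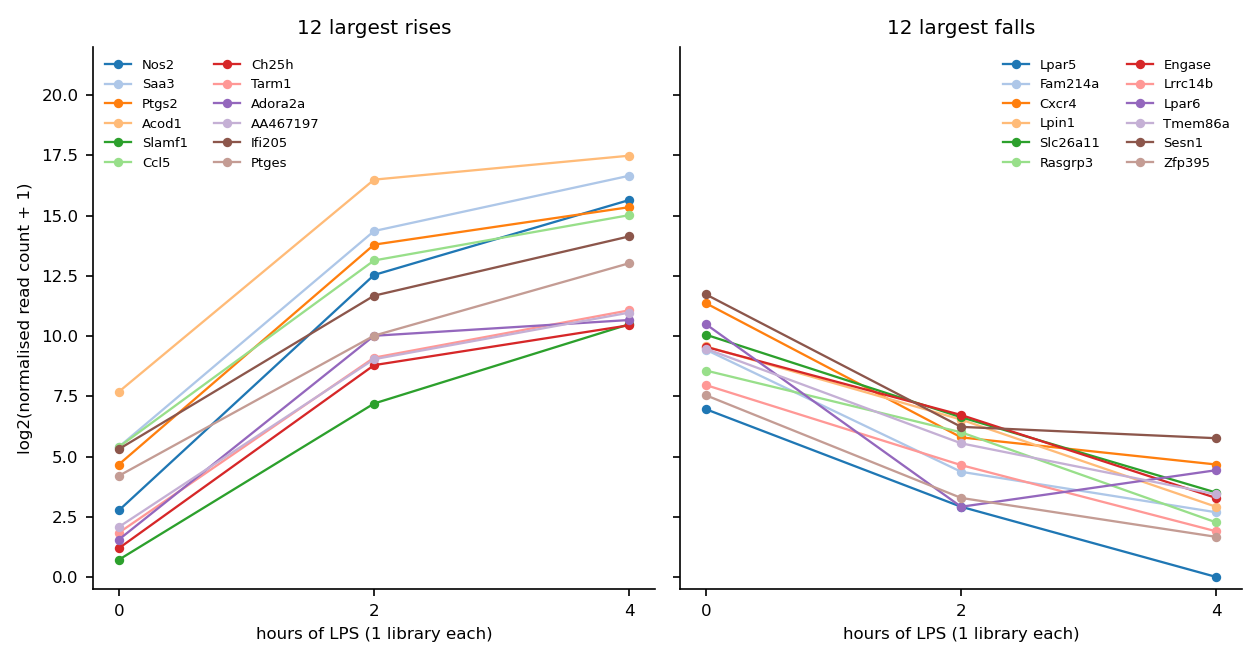
Lines join log2(normalised read count + 1) at 0 h, 2 h and 4 h of LPS (1 library each) for the 12 largest rises (left) and the 12 largest falls (right), leaving out genes of the study's own heatmap. All 12 rises were highest at 4 h and 11 of the 12 falls were lowest at 4 h, with Lpar6 lowest at 2 h.

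G-protein-coupled receptors had high shares on both sides. Of 58 kept, 16 were induced and 17 repressed (14 and 20 with equal totals), 27.6% and 29.3% of the list, against 9.95% and 6.35% of all genes. The induced side held receptors for bacterial peptides, adenosine and metabolites. Fpr2 and Fpr1, formyl peptide receptors, had 28.3, 825 and 4124 and 25.7, 485 and 2828 at 0 h, 2 h and 4 h (log2 changes 7.14 and 6.73). Hcar2, a receptor for ketone bodies, had 7.08 at 0 h, 705 at 2 h and 1100.4 at 4 h (7.09), and Adora2b, the second adenosine receptor to be induced, had a log2 change of 6.17. Ccr7, which guides cells to lymph nodes, had a log2 change of 4.25. On the repressed side stood receptors for lysophospholipids, oxysterols and acid. S1pr1, the sphingosine 1-phosphate receptor for exit from tissue, had 825 at 0 h, 190 at 2 h and 62.5 at 4 h and was 13.2-fold lower (95% counting interval 10.9 to 16.1). Gpr183, a receptor for oxysterols that are made from 25-hydroxycholesterol, had 395 at 0 h, 37.1 at 2 h and 39.7 at 4 h (log2 change -3.28), while Ch25h went the other way. Gpr34, a receptor for lysophosphatidylserine, had 479 at 0 h, 34.9 at 2 h and 21.7 at 4 h (-4.40). Gpr65, a sensor of acid, had 699.9 at 0 h, 148 at 2 h and 118 at 4 h (-2.55). Within 1 ligand class the receptors parted: for lysophosphatidic acid, Lpar1 had a log2 change of 4.79 against -6.97 for Lpar5 and -6.06 for Lpar6.

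Genes of PI3K, insulin and mTOR signalling were more often repressed than induced. Of 46 PI3K, insulin and mTOR genes, 8 were repressed and 3 induced (10 and 1 with equal totals), shares of 17.4% and 6.52% against 6.35% and 9.95% of all kept genes, with a median of -0.10. Insr, the insulin receptor, had 1078 at 0 h, 428 at 2 h and 145 at 4 h and was 7.46-fold lower (95% counting interval 6.55 to 8.52). Foxo3, a transcription factor that PI3K signalling keeps out of the nucleus, had 2295 at 0 h, 199 at 2 h and 230.4 at 4 h (log2 change -3.31). Gab3, an adaptor of the M-CSF receptor, had 181 at 0 h, 19.7 at 2 h and 10.9 at 4 h (-3.94), and Pik3r2, a regulatory subunit of PI3K, had 655 at 0 h, 341 at 2 h and 67.4 at 4 h (-3.26). On the other side, Pik3r5, the regulatory subunit of the G-protein-driven PI3Kγ, had 2002 at 0 h, 26407 at 2 h and 20353 at 4 h (3.35) and Pik3ap1, the adaptor BCAP, had 3001 at 0 h, 13534 at 2 h and 20395 at 4 h (2.76, or 1.94 and thus under 4-fold with equal totals). Of 65 cytokine and growth factor receptors, 20 were induced and 8 repressed (both 14 with equal totals). Tgfbr1, the signalling receptor of TGF-β, had 2091 at 0 h, 828 at 2 h and 264 at 4 h and was 7.93-fold lower (95% counting interval 7.21 to 8.75), and Smad3, which carries that signal to the nucleus, had 199 at 0 h, 135 at 2 h and 21.7 at 4 h (log2 change -3.14). Il6ra, the receptor of interleukin-6, had 1847 at 0 h, 515 at 2 h and 264 at 4 h (-2.80). Lrp6, a coreceptor of Wnt proteins, had 2669.6 at 0 h, 1481 at 2 h and 364 at 4 h (-2.87). Flt1, a receptor of vascular endothelial growth factor, was among the induced members (log2 change 6.35).

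Cell division genes were lower, most of them by less than 4-fold. Of 85 mitosis genes, 15 were repressed and 1 induced, 73 lay below their 0 h value, and the median log2 change was -1.13 at 4 h and -0.76 at 2 h. Ncapg2, a condensin subunit, had 2334 at 0 h, 487 at 2 h and 208 at 4 h and was 11.2-fold lower (95% counting interval 10.1 to 12.5). Kif23, a kinesin of the cleavage furrow, had 831 at 0 h, 205 at 2 h and 135 at 4 h (log2 change -2.62), and Aspm, a spindle pole protein, had 1350.2 at 0 h, 319 at 2 h and 226 at 4 h (-2.58). Cdk1, the kinase that drives mitosis, was near no change (-0.06), as were Cenpe (-0.06) and Nusap1 (-0.15). Pttg1, securin, was the 1 induced member, with 181 at 0 h, 880 at 2 h and 1397 at 4 h (2.94). Histone genes of the replication clusters and their variants had a median of -1.16 over 63 genes, with 4 repressed and 1 induced (29 and 1 with equal totals), the induced one being the replication-independent H3f3b (2.92). The repressed share was 6.35%, the same as among all kept genes. Reads of near-identical histone genes may have been split between copies.

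Of 68 genes of the G1/S step and DNA replication, 10 were repressed and 5 induced (24 and 2 with equal totals). E2f2, an activating E2F factor, had 436 at 0 h, 63.3 at 2 h and 19.02 at 4 h and was 22.9-fold lower (95% counting interval 16.3 to 33.2). Gmnn, geminin, which guards against repeated replication, had 161 at 0 h, 28.4 at 2 h and 16.3 at 4 h (log2 change -3.23). Ccnd2, cyclin D2, had 24.4 at 0 h, 1524 at 2 h and 2374 at 4 h (6.54) and stood far above the rest, while Ccnd1 and Ccnd3 had log2 changes of 0.00 and 0.37. Cdkn1a, the inhibitor p21 of cyclin-dependent kinases, had 477 at 0 h, 7789 at 2 h and 4896 at 4 h (3.36).

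DNA repair had 0 induced and 15 repressed genes of 91, with a median of -0.57 and 70 below their 0 h value. Chek2, a checkpoint kinase that answers to double-strand breaks, had 320.3 at 0 h, 118 at 2 h and 9.78 at 4 h and was 32.8-fold lower (95% counting interval 20.5 to 55.7). Xpc, which finds bulky lesions for nucleotide excision repair, had 439 at 0 h, 58.96 at 2 h and 36.95 at 4 h (log2 change -3.53), and Msh6, a subunit of the mismatch sensor, had 362 at 0 h, 50.2 at 2 h and 38.6 at 4 h (-3.20). Tdg, a glycosylase of thymine and of oxidised methylcytosine, was highest of the list with 138 at 0 h, 328 at 2 h and 478 at 4 h (1.78). Genes named for centrosomal or ciliary proteins (Cep, Ift, Bbs and similar names) also lay low, with 9 repressed and 1 induced of 53 and a median of -1.11. Cep131, a centriolar satellite protein, had 239 at 0 h, 74.2 at 2 h and 13.6 at 4 h (log2 change -4.04). Kinesins and dyneins had 5 repressed and 2 induced of 31 (14 and 1 with equal totals), led by Kif21b (-3.68) on one side and the axonal motor Kif1a (5.73) on the other. With equal library totals the repressed numbers were 41 for mitosis, 36 for DNA repair and 25 for centrosome and ciliary genes.

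The circadian clock list was small and had 5 repressed members of 16 (7 with equal totals), with 1 induced gene and a median of -1.05. Dbp, a transcription factor that the clock drives, had 556 at 0 h, 159 at 2 h and 26.1 at 4 h and was 21.3-fold lower (95% counting interval 15.9 to 29.1). Tef, a factor of the same family, had 1204 at 0 h, 304 at 2 h and 90.2 at 4 h (log2 change -3.72), and Per3, a period protein, had 463 at 0 h, 144 at 2 h and 55.4 at 4 h (-3.04). Nfil3, which binds the same DNA element as Dbp and Tef and represses it, went the other way, with 169 at 0 h, 2457 at 2 h and 1877 at 4 h (3.47). The core activators had log2 changes of -0.95 (Arntl) and -0.02 (Clock), under 4-fold. The time of day of each harvest is not given in the sources used here.

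Transcription factors were induced in 36 and repressed in 19 of 127 cases. With equal library totals the order turned, with 19 induced and 35 repressed. Gfi1, a repressor of the myeloid lineage, had 11.6 at 0 h, 266 at 2 h and 1003 at 4 h (log2 change 6.32). Batf2 and Batf, AP-1 family partners, had log2 changes of 5.80 and 5.04, and Ets2 of 5.66. Several lineage factors stood on the repressed side. Cebpa, a master factor of the granulocyte and monocyte lineage, had 991 at 0 h, 175 at 2 h and 61.4 at 4 h and was 16.1-fold lower (95% counting interval 13.3 to 19.7). Hhex and Lyl1, factors of blood progenitors, had 342, 32.8 and 18.5 and 1187, 56.8 and 67.4 at 0 h, 2 h and 4 h (-4.14 and -4.12). Irf4, a factor of alternative activation, had 126 at 0 h, 28.4 at 2 h and 13.04 at 4 h (-3.18), whereas Spi1, the pioneer factor of macrophages, had 2250.1 at 0 h, 10228 at 2 h and 10573 at 4 h, a log2 change of 2.23. Irf2bp2, a corepressor, had 4188 at 0 h, 415 at 2 h and 266 at 4 h (-3.97). Among chromatin genes 12 were induced and 10 repressed of 125 (5 and 20 with equal totals), shares of 9.6% and 8% that were close to those of all kept genes. Tet2, which oxidises methylcytosine, had 1067 at 0 h, 9567 at 2 h and 12353 at 4 h (3.53), and the Polycomb subunits Cbx6 and Cbx7 had 211, 65.5 and 16.8 and 181, 52.4 and 16.8 (-3.57 and -3.35). Genes named Zfp, mostly zinc finger proteins of little known function, had a median of -0.66 over 210 genes, 18 repressed and 8 induced (60 and 5 with equal totals). The repressed share was 8.57% of the list against 6.35% of all kept genes.

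RNA decay factors parted within a family. Zfp36, tristetraprolin, which destroys cytokine messages, had 713 at 0 h, 13539 at 2 h and 12971 at 4 h (log2 change 4.18), while its relatives Zfp36l2 and Zfp36l1 stood far below their 0 h values. Zfp36l2 had 3701 at 0 h, 168 at 2 h and 107 at 4 h and was 34.6-fold lower (95% counting interval 29.99 to 40.05). Zfp36l1 had 929 at 0 h, 435 at 2 h and 124 at 4 h and was 7.46-fold lower (95% counting interval 6.49 to 8.62). Zc3h12a and Zc3h12c, RNases of the Regnase family, had log2 changes of 3.09 and 3.90. Tnrc6b and Ago4, parts of the microRNA machinery, had -3.93 and -2.57. In all, 6 were induced and 5 repressed of 68 (3 and 11 with equal totals), and the shares of 8.82% and 7.35% were close to the 9.95% and 6.35% of all kept genes.

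F-box and other cullin adaptors had 12 repressed (15% against 6.35% of all kept genes) and 3 induced of 80 (18 and 0 with equal totals). Fbxo32, the atrophy-linked ligase atrogin-1, had 215 at 0 h, 4.37 at 2 h and 5.43 at 4 h (log2 change -5.07), and Klhl6, an adaptor known from B cells, had a log2 change of -3.16. Proteasome subunits had 5 induced and 0 repressed of 37 (1 and 0 with equal totals), with the immunoproteasome subunits Psmb10, Psmb9 and Psmb8 at 3.05, 2.73 and 2.64. Lysosomal genes had 6 repressed and 5 induced of 102 (14 and 2 with equal totals) and a median of -0.17, and their repressed share of 5.88% was close to that of all kept genes. Sgsh, a sulphatase of heparan sulphate, had 1116 at 0 h, 454 at 2 h and 79.9 at 4 h (-3.79), and Ctsc, the cathepsin that activates granule proteases, had 4595 at 0 h, 16118 at 2 h and 53520.5 at 4 h (3.54). Autophagy genes had 3 induced and 2 repressed (3.92%) of 51 (3 and 13 with equal totals). Ulk1, the kinase that starts autophagy, had 681 at 0 h, 319 at 2 h and 95.6 at 4 h and was 7.12-fold lower (95% counting interval 6.07 to 8.403). Optn and Tax1bp1, receptors that bring cargo to autophagosomes, had 3.20 and 3.20, whereas Nbr1, a receptor of the same kind, had -2.42. Activating and exchange factors of small GTPases had 9 repressed and 4 induced of 43 (11 and 1 with equal totals), led by Arhgap19, with 2959.7 at 0 h, 605 at 2 h and 109 at 4 h (-4.75). Glycan enzymes had 7 repressed and 9 induced of 68 (22 and 5 with equal totals). Gcnt1 and Gcnt2, which branch glycans, had 909.6, 183 and 28.8 and 16.1, 203 and 387 (-4.93 and 4.51), and St6gal1, which caps glycans with sialic acid, had 1473 at 0 h, 869 at 2 h and 111 at 4 h (-3.71).

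Receptors for uptake had 15 induced and 5 repressed members of 68 (9 and 8 with equal totals), 22.1% and 7.35% of the list against 9.95% and 6.35% of all kept genes. Marco and Msr1, scavenger receptors, had 20.6, 262 and 1078 and 959, 6049 and 17692 (5.64 and 4.20). Clec4e, the lectin Mincle, had 583 at 0 h, 11964 at 2 h and 36774 at 4 h (5.98). Cd300lb and Cd300a, paired receptors of activating and inhibitory kind, had 3276, 98.3 and 146 and 3245, 2005 and 540.1 (-4.48 and -2.58). Among sensors of microbes 13 were induced and 3 repressed of 49 (10 and 7 with equal totals), and the repressed share of 6.12% was close to the 6.35% of all kept genes. Mefv, pyrin, had a log2 change of 4.12, and Tlr3, the receptor of double-stranded RNA, of 3.78. Nlrp1b, an inflammasome sensor, had 794 at 0 h, 255 at 2 h and 80.4 at 4 h (-3.29), and Mavs, the adaptor of RNA sensors, had 531 at 0 h, 139.8 at 2 h and 119 at 4 h (-2.15). In the list of alternative activation 7 were induced and 1 repressed of 22 (7 and 3 with equal totals). Il4ra, a receptor chain for interleukin-4, had 2360.1 at 0 h, 53046 at 2 h and 49578 at 4 h (4.39), and Tgm2, a transglutaminase often used as a marker of that state, had 479 at 0 h, 9405 at 2 h and 7603 at 4 h (3.99). Among ion channels, P2rx7, the ATP-gated channel upstream of the inflammasome, had 1671 at 0 h, 548 at 2 h and 279 at 4 h (-2.58), and Clic4 had 1725 at 0 h, 38483 at 2 h and 53238 at 4 h (4.95).

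Of 122 kinases, 19 were induced and 9 repressed (9 and 20 with equal totals), that is 15.6% and 7.38% beside 9.95% and 6.35% of all kept genes. Src and Jak2, tyrosine kinases, had 75.9, 2926 and 3361 and 771, 14986 and 22775 at 0 h, 2 h and 4 h (5.45 and 4.88). Nuak1, a relative of AMP-activated kinase, had 279 at 0 h, 50.2 at 2 h and 10.9 at 4 h (-4.56), and Tec, a tyrosine kinase of the Tec family, had 1123 at 0 h, 810.1 at 2 h and 118 at 4 h (-3.24). Of 142 solute carriers, 20 were induced and 10 repressed (12 and 24 with equal totals), that is 14.1% and 7.04%. Slc7a11, which exchanges cystine for glutamate, had 58.5 at 0 h, 3149 at 2 h and 3245 at 4 h (5.77), and Slc28a2, a nucleoside carrier, had 338 at 0 h, 6217 at 2 h and 29688 at 4 h (6.45). Slc46a3, a lysosomal carrier, had 1717 at 0 h, 393 at 2 h and 76.6 at 4 h (-4.47), and Slc36a1, which moves amino acids with protons, had 929.5 at 0 h, 329.7 at 2 h and 96.2 at 4 h (-3.26). TRIM ligases had 9 induced and 3 repressed of 34 (both 6 with equal totals), and the repressed were Trim16 (-4.08), Trim47 (-3.63) and Trim65 (-3.16). Complement genes had 3 induced and 1 repressed of 16 (3 and 1 with equal totals). Cfb, factor B of the alternative pathway, had 67.5 at 0 h, 2347 at 2 h and 13548 at 4 h (7.63), a value that is uncertain since another annotated gene overlaps it and the use of strand in counting is not given. C5ar2, the second receptor of C5a, had 114 at 0 h, 63.3 at 2 h and 17.4 at 4 h (-2.64). Stress genes of the unfolded protein response had 6 induced and 0 repressed of 41 (3 and 5 with equal totals), among them Atf3 (2.77), a stress-induced transcription factor, and Hspa5 (2.47), the chaperone BiP of the endoplasmic reticulum.

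Housekeeping machinery lay close to the median of all genes. No gene of 82 cytosolic ribosomal proteins passed 4-fold in either direction, with a median of 0.07. Mitochondrial ribosomal proteins had a median of -0.15 with 1 of 76 induced, cytosolic tRNA synthetases of 0.21 with 2 of 22 induced, and ribosome biogenesis genes of 0.25 with 3 induced and 1 repressed of 72. With equal library totals 0 of the biogenesis genes were induced and 6 repressed.

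**Figure D4:**
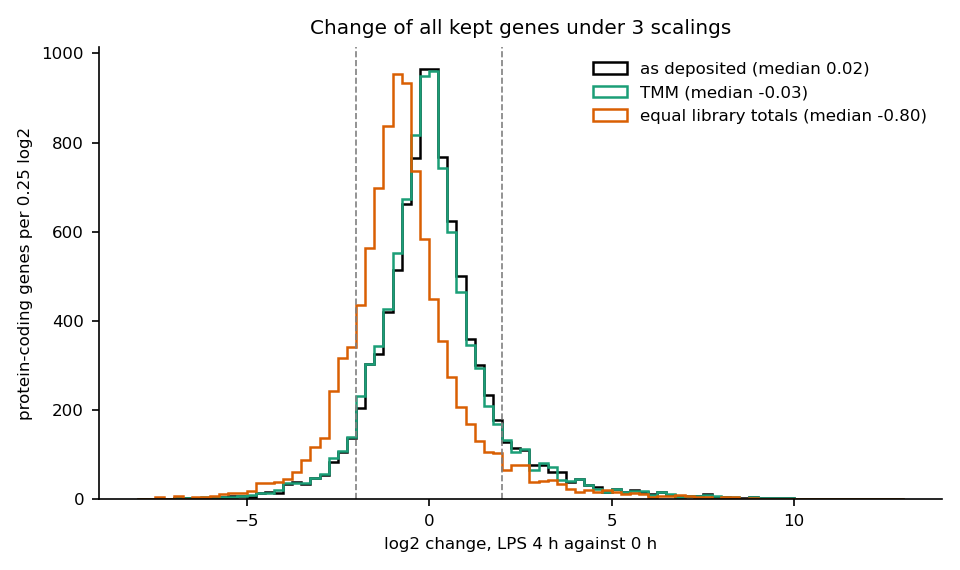
Histograms of the log2 change of the 9658 kept genes at LPS 4 h against 0 h, counted in steps of 0.25, for the deposited scaling, for TMM and for equal library totals. Dashed lines mark 4-fold; the first and second curves nearly coincide and the third lies 0.82 lower, which moves genes from the induced to the repressed side.

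The 2 h library, which the rule did not use, shares the 0 h control with the 4 h comparison. At 2 h the induced genes had a median log2 change of 2.58 and the repressed genes of -1.64. The 2 h value lay between those of 0 h and 4 h in 769 of 961 induced and in 527 of 613 repressed genes. It was above both in 184 induced genes and below both in 79 repressed genes. Induced genes highest at 2 h included Tnfaip3, Socs3, Dusp2 and Il12b, described above, and repressed genes lowest at 2 h included Lpar6, Ccr2 and Cnr2, the second cannabinoid receptor, with 472 at 0 h, 4.37 at 2 h and 11.96 at 4 h. The 2 h library has the fewest reads and its values near 0 rest on single reads, for instance 2 reads of Cnr2. Its share of reads from the mitochondrial genome also stood apart, at 0.0803% against 0.655% at 0 h and 0.427% at 4 h.

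The promoters of both groups were compared in RefSeq sequence of build GRCm38.p6, over the 250 bases before each annotated start, for which 777 induced (80.9%), 492 repressed (80.3%) and 7802 kept genes (80.9%) had an entry. Each motif was searched on both strands, and a match is a description of letters and not a binding site. A gene was counted when any of its listed promoters held the motif. The shares of all promoters are per promoter and thus not in the same unit. The form GAAA, any 2 bases, GAAA, which is part of the interferon-stimulated response element, was found in 10.6% of induced, 2.24% of repressed and 3.61% of all kept genes with a promoter, and in 2.98% of the 32851 promoters of the table. The κB form GGGA, any base, TTTCC was found in 1.67% (13 genes), 0.407% (2 genes) and 0.4999% (39 genes), and in 0.356% of all promoters. TGANTCA, an AP-1 form, was found in 9.01%, 5.89% and 5.45% (6.75% of all promoters), and TATAAA in 11.8%, 7.32% and 7.70% (12.4%). On the repressed side, CACGTG, an E-box, was found in 9.01% of induced, 12.2% of repressed and 10.6% of kept genes (6.02% of all promoters), the forkhead form TGTTTAC in 3.22%, 3.66% and 2.70% (3.17%), GGCGGGAA, an E2F form, in 3.73%, 3.86% and 4.27% (1.86%), and the GC-box GGGCGG in 59.7%, 66.5% and 65.1% (32.7%). The repressed genes thus had shares close to those of all kept genes for the forms searched other than the interferon form, and none of these shares was tested.

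The stretches below show where such letters lie in promoters of induced and repressed genes, each with the searched letters in capitals and read 5′ to 3′ towards the start. Genes of the study's heatmap and those on a chromosome that was set aside were passed over. For each form the gene is the one with the largest change, within the group named, that held the form and had 1 listed promoter: the induced genes gave Gbp5 for the κB form (chr3:142496684-142496933, plus strand), the interferon-stimulated list gave Ifi205 for the interferon form (chr1:174031756-174032005, minus strand), and the repressed genes gave Cxcr4 for the GC-box (chr1:128592300-128592549, minus strand) and Vgll4, a cofactor of TEAD factors, for the E-box (chr6:114969204-114969453, minus strand). Vgll4 had 583 at 0 h, 48.04 at 2 h and 22.8 at 4 h (log2 change -4.62), and the other 3 genes are described above.
Gbp5: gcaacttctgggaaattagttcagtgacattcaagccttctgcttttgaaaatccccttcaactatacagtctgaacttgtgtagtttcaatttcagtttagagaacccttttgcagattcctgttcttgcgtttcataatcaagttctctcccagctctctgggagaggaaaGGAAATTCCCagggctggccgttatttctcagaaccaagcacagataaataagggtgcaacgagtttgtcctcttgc
Ifi205: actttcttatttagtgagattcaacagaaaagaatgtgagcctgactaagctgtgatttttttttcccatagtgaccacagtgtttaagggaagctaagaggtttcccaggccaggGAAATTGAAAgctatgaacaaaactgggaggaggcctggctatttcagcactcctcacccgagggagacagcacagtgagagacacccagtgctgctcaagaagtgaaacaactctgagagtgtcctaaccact
Cxcr4: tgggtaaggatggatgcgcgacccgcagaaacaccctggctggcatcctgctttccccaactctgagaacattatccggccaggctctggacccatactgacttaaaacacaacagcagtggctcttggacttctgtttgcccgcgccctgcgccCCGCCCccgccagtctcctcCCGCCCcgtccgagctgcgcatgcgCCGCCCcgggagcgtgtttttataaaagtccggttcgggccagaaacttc
Vgll4: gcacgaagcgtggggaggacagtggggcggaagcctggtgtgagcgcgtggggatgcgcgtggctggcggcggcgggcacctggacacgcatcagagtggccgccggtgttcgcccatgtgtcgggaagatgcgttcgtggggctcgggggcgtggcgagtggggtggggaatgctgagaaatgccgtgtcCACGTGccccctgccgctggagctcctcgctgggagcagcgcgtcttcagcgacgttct
In Gbp5 the κB match, read on the opposite strand, began 77 bases before the start, and the stretch also held 1 match of the interferon form on that strand. In Ifi205 the interferon match began 134 bases before the start. In Cxcr4 the 3 GC-boxes, all on the opposite strand, began 50 to 95 bases before the start, and TATAAA was matched as well. In Vgll4 the E-box began 59 bases before the start, and the stretch also held 1 GC-box.

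The AAV experiment gives a readout that the rule did not use and that shares no sample with the LPS experiment. Its values are TPM, a read measure corrected for transcript length and depth. The 11218 genes whose mean reached 1 TPM were fitted as log2(TPM + 1) in limma with a trend, and p-values were adjusted by Benjamini-Hochberg over all of them. Among all genes tested, 2.23% were higher and 4.10% lower in AAV-Shisa3 than in AAV-GFP BMDMs at an adjusted p under 0.05. Of the induced genes 870 were tested, of which 116 were higher (13.3%) and 20 lower (2.30%), and of the repressed genes 501 were tested, of which 7 were higher (1.40%) and 81 lower (16.2%). The median log2 change was 0.11 for induced, -0.33 for repressed and -0.10 for the 8911 genes kept in the LPS comparison. The sign was positive in 545 of 870 induced genes and negative in 418 of 501 repressed genes, beside 3030 positive and 5881 negative of the 8911 kept genes. With each sample centred on its median, which shifts the median of all genes from -0.10 to 0.01, the calls over all genes went from 250 higher and 460 lower to 410 and 230, those of induced genes to 163 and 8 and those of repressed genes to 10 and 54. At this sample number the calls lean on the variance that limma pools over genes: without the trend no induced and no repressed gene was called, and at an unadjusted p under 0.05 there were 236 induced genes higher and 231 repressed genes lower, beside 625 higher and 1748 lower of the 8911 kept genes. Without AAV-GFP replicate 1 or AAV-GFP replicate 2 no induced gene was called, without AAV-Shisa3 replicate 1 there were 8 and without AAV-Shisa3 replicate 2 there were 13 higher, and at most 1 repressed gene was lower in any of these 4 fits, whereas the medians stayed between 0.09 and 0.15 for induced and between -0.35 and -0.31 for repressed genes.

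Among the repressed genes that were lower with AAV-Shisa3, Tns1 had 3.04 and 4.12 TPM under AAV-GFP against 0.4800 and 1.18 under AAV-Shisa3 (log2 change -1.34, standard error 0.26, adjusted p = 0.0431 from limma). Slc45a4, a solute carrier, had 36.00 and 41.5 TPM under AAV-GFP against 12.8 and 14.7 under AAV-Shisa3 (log2 change -1.43, adjusted p = 0.0143 from limma). Dbp had 3.89 and 3.61 TPM under AAV-GFP against 1.28 and 1.35 under AAV-Shisa3 (log2 change -1.04, adjusted p = 0.0309 from limma), and Nfatc2, a calcium-driven transcription factor, had 20.7 and 20.9 TPM under AAV-GFP against 8.78 and 10.1 under AAV-Shisa3 (-1.06, adjusted p = 0.0178 from limma). In each of these genes both AAV-Shisa3 samples lay below both AAV-GFP samples. Since the genes were picked from those called lower, this separation adds no support. The 7 repressed genes that were higher instead were Vegfa, Tifab, Pald1, Ccr2, Uck2, Tmem37 and Cd300a. Vegfa had 5.39 and 5.97 TPM under AAV-GFP against 19.01 and 20.8 under AAV-Shisa3 (log2 change 1.64, adjusted p = 0.0113 from limma), and Ccr2 had 3.900 and 3.64 TPM under AAV-GFP against 7.400 and 8.54 under AAV-Shisa3 (0.91, adjusted p = 0.0295 from limma). Of the induced genes, Cxcl10, an interferon-induced chemokine, had 177 and 192 TPM under AAV-GFP against 941 and 654 under AAV-Shisa3 (log2 change 2.08, adjusted p = 0.0142 from limma), and Ch25h had 15.1 and 14.5 TPM under AAV-GFP against 63.05 and 49.2 under AAV-Shisa3 (1.85, adjusted p = 0.0113 from limma). Among the 20 induced genes that were lower instead was Hmgcs1 of the cholesterol list (-0.98, adjusted p = 0.0203 from limma), while Idi1 of the same list was higher (0.96, adjusted p = 0.0465 from limma). Il4ra (-0.38, adjusted p = 0.0431 from limma) and Cdkn1a (-0.33, adjusted p = 0.0495 from limma) were lower as well. The genes named for this readout were chosen after their values were seen.

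**Figure D5:**
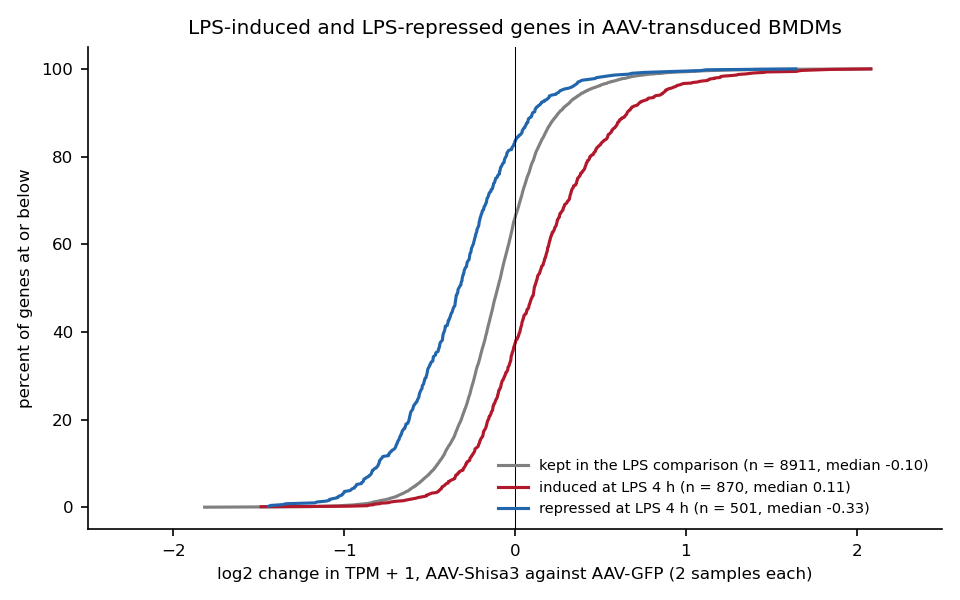
Cumulative percent of genes (y axis) at or below a given log2 change in TPM + 1 between AAV-Shisa3 and AAV-GFP BMDMs (x axis, 2 samples per group), for 870 induced, 501 repressed and all 8911 genes kept in the LPS comparison that were tested. The repressed curve lies to the left of that of all genes (median -0.33 against -0.10) and the induced curve to the right (0.11).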

How the data were processed

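RNA-seq of BMDMs was analysed in 7 samples, 3 LPS libraries (0 h, 2 h and 4 h) and 4 AAV samples. For LPS the authors deposited a scaled read signal per gene, that is read counts divided by 1 factor per library, as the values themselves show. For AAV the authors deposited values whose header names no unit and which were read as TPM because each sample sums to just under the fixed total of that unit, so their depth is unknown. The submitters' processing notes list mm9. The aligner, counter and annotation release are not given in the sources used here.

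Read counts were recovered by dividing each LPS value by the smallest value above 0 of its library. Folds were log2((value + 1)/(value + 1)), and counting intervals (95%) came from the binomial split of the recovered reads and cover counting error only. AAV values were compared with limma 3.58.1 in R 4.3.3, checked on simulated data. Its p-values measure only the spread between these samples, for which separate cultures are not stated. TMM factors came from edgeR 4.0.16. All other values and the figures came from Python 3.11.15 with scipy 1.17.1, pandas 2.3.3, matplotlib 3.10.9 and numpy 2.4.6.

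The members and the 65 gene lists were chosen with earlier results of these data known. Genes were named as the 15 largest rises and 15 largest falls, the 10 induced and 10 repressed genes of highest value, up to 5 members past 4-fold per list and direction, up to 3 members per list nearest to no change or against its larger count, the neighbours of the threshold and the cell type markers. A few results are not reported here. Genes of the study's heatmap were left out of the text except in counts. Adora2b, Arntl, Ccl2, Ccnd3, Ccr7, Cd28, Cnr2, Cpt1a, Cxcl16, Gpr183, Gpr65, Irf2bp2, Klhl6, Lpar1, S1pr1, Tns1 and Vgll4 were named outside this rule after their values were seen. Alternatives were other scalings, pseudocounts and filters, limma without the trend, with a replicate block and without each AAV sample. Columns of per-sample values without a sample numbered 0.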

Additional observations from a re-analysis of the deposited data

Results flagged for a closer look

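Genes that are not annotated as protein-coding lie outside the comparison above and also differed between LPS 4 h and 0 h, by the same threshold and in 1 library each. Of 628 such genes with a mean of at least 50, 95 were 4-fold or more higher and 30 were 4-fold or more lower at 4 h, and the unstimulated library is their control. Mir155hg, the host transcript of miR-155, had 4.50, 856 and 1323 normalised reads at 0 h, 2 h and 4 h (log2 change 7.91). Cxcl11, annotated as a polymorphic pseudogene, had 1.29, 511 and 615 (log2 change 8.07, from 2 reads at 0 h). AW112010, a long intergenic RNA, had 109 at 0 h, 1771 at 2 h and 14681 at 4 h (log2 change 7.06). Ptgs2os2, which is named as an opposite-strand transcript of Ptgs2, had no read at 0 h and 321 reads at 4 h, and since the use of strand in counting is not given, its reads cannot be told apart from those of Ptgs2 where both overlap. The difference of these genes was not tested.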

How the results depend on the processing

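With 1 library per time point the LPS counts describe a pair of libraries, and the scaling between them decides the order of induced and repressed genes. Reads scaled to equal library totals gave 582 genes 4-fold or more higher and 1544 lower, in place of 961 and 613, and these held all 613 repressed genes and no induced gene beyond the 961. TMM gave 938 and 640, centring on the median 921 and 659, a pseudocount of 0.1 gave 966 and 620 and one of 5 gave 942 and 572. The number of repressed genes also moved with the filter on low values, to 1140 with no filter, 939 with a mean of at least 10 and 308 with a mean of at least 200, against 1363, 1122 and 804 induced genes. Of 840 log2 changes of single genes examined, 176 fell below 4-fold with equal totals, 12 with TMM and 18 with centring, and 0 changed sign in any of these. A change of sign was not possible, since all 840 were past 4-fold and the largest shift was 0.82 on the log2 scale. Genes under 4-fold were not among them.

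The counts of AAV calls depended on the fit. Induced genes that were higher numbered 116 and repressed genes that were lower 81. Without limma's trend both were 0, and without the filter on low values they were 210 and 180, a fit that limma itself marked as unreliable since many residual variances were exactly 0. Leaving out 1 sample gave 0 to 13 induced genes higher and 0 to 1 repressed genes lower, with the lone sample assumed to vary like the others. With the replicate block they were 170 and 115, while calls over all genes tested went from 250 higher and 460 lower to 424 and 851, and induced genes called lower from 20 to 43. The labels give the samples only a shared number, and the correlation of the differences between replicates 1 and 2 in both groups was 0.19 across 11218 genes, which are not independent. Centring gave 163 and 54, and a pseudocount of 0.1 gave 117 and 81.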
